A study of Mus musculus with 12 samples.

Results

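The genes of the cytosolic ribosomal proteins were followed through cultured adult mouse astrocytes. They were taken from the table of gene levels as the protein-coding rows named Rpsa or named Rps, Rpl or Rplp with a number and an optional a, x or l. This gave 81 genes, 31 of the small and 50 of the large ribosomal subunit, out of 54532 rows and 22046 protein-coding rows. The rule uses names and no measured value. It also takes in paralogs whose names end in l (Rpl3l, Rpl10l, Rpl39l, Rps27l, Rpl36al), and it leaves out a few true ribosomal proteins with other names, among them Rack1 and Fau.

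The libraries came from C57BL/6 mice, from cortex and hippocampus, and formed 6 groups of 2 in 3 experiments. In the first, Ogt cKO astrocytes of mice aged 4 months were set against cKO control astrocytes of the same age. Ogt encodes O-GlcNAc transferase, which adds a single sugar to nuclear and cytosolic proteins. Both groups carry the same genotype label, Glast-CreERT2::Ogtfloxp/Y, a floxed Ogt allele with a tamoxifen-inducible Cre driven by the promoter of an astroglial glutamate transporter, and no tamoxifen is mentioned in the labels. In the second, astrocytes of 5X APP mice, an amyloid model of Alzheimer's disease (AD model), were set against wild-type AD control astrocytes, aged 6 months by the sample labels and 5 months by the design text. In the third, wild-type astrocytes of mice aged 2 months were exposed to 20 µM amyloid-beta 1-42 (Aβ treated, 72 hours, or 73 hours by the label of replicate 2) and set against untreated Aβ control astrocytes. Each experiment has its own controls, and the age of the mice differs between experiments. The labels do not say whether replicates came from separate animals or cultures, so p-values measure the spread between these samples, which may be technical.

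Ribosomes consist of ribosomal RNA and a fixed set of proteins, each present in 1 copy per subunit except those of the stalk, so that cells make the proteins in matched amounts. The genes are scattered over the genome, yet their mRNAs share a start of pyrimidines, the terminal oligopyrimidine (TOP) tract, through which growth signals from the kinase mTOR set their translation, with the protein Larp1 as the binding partner of the tract. In most tissues they belong to the most abundant mRNAs, and their level follows growth and proliferation. They have very many processed pseudogenes, and several hold small nucleolar RNAs in their introns.

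The libraries held 16418852 to 18705309 reads assigned to genes, as recovered from the deposited FPKM (fragments per kilobase of gene length, scaled to library size). Ogt was at 11.0 and 12.03 FPKM in Ogt cKO and at 20.8 and 24.7 FPKM in cKO control libraries, a fitted log2 change of -0.92 ± 0.30 (SE; limma, adjusted p = 0.038). Markers of several cell types were present in every group. The 10 markers of pericytes and smooth muscle summed to 4028 and 4076 FPKM as lowest and highest in Ogt cKO against 505 and 1011 in cKO control, to 210.2 and 759 in the AD model against 1719.7 and 3843 in AD control, and to 421 and 488 in Aβ-treated against 3602 and 4104 in Aβ control libraries. The 10 astrocyte markers summed to 105 and 119 FPKM in Ogt cKO against 535 and 617 in cKO control, to 240.1 and 271 in the AD model against 465 and 655 in AD control, and to 84.3 and 174 in Aβ-treated against 121 and 129 in Aβ control libraries. The 12 markers of microglia and macrophages summed to 3087 and 4108 FPKM in Ogt cKO against 7093 and 9044 in cKO control. They summed to 3512 and 5635.5 FPKM in the AD model against 1122 and 1630 in AD control. In the Aβ experiment they summed to 4738 and 6268 FPKM in treated against 2332 and 3870 in control libraries. These sums lay above those of the astrocyte markers in every group. No marker of these lists was at 0 in all 12 libraries. In such mixed cultures fewer cells of a type and less RNA per cell cannot be told apart.

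The members lie on 19 chromosomes, 4 of them on X (Rpl10, Rpl36a, Rpl39 and Rps4x). Among the 61 members with an entry in the RefSeq promoter table (build GRCm38.p6), 30 (49.2%) held an unbroken run of at least 8 pyrimidines that begins with C within 20 bases of the annotated start, on the strand of the gene, against 15.7% of 27025 genes in the same table. With runs of at least 5 the shares were 82.0% of the members and 52.2% of all genes. Windows of 40 bases before and 20 bases from the start are shown for 7 members, with the longest such run in capitals. Rps6, Rpl15, Rpl27a and Rps18 stand for genes with a long run that changed with the family. Rpl38 is one whose run begins at the annotated start, and Rps27 and Rps21 are among the members with the smallest changes in the Ogt cKO.
Rps6, chr4:86857348-86857407, minus strand: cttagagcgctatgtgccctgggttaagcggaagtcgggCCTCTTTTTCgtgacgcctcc
Rpl15, chr14:18270967-18271026, minus strand: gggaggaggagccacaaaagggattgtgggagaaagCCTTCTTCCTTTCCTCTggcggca
Rpl27a, chr7:109519155-109519214, plus strand: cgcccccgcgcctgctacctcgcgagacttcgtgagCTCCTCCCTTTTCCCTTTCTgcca
Rps18, chr17:33955646-33955705, minus strand: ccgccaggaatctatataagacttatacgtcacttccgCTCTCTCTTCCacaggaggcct
Rpl38, chr11:114668540-114668599, plus strand: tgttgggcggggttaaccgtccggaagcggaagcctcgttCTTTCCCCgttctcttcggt
Rps27, chr3:90213629-90213688, minus strand: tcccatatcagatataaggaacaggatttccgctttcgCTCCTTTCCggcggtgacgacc
Rps21, chr2:180257339-180257398, plus strand: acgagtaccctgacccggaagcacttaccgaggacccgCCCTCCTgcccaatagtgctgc

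The run covers 10 bases in Rps6, 17 in Rpl15, 20 in Rpl27a, 11 in Rps18, 8 in Rpl38, 9 in Rps27 and 7 in Rps21. A run is a description of these letters and no measured TOP tract, since the start of the mRNA was not mapped in these libraries. The members with a run of at least 8 and those with a shorter one had similar median changes. In Ogt cKO against cKO control the median log2 change was 1.15 over 30 members with such a run and 1.09 over 29 without. In Aβ-treated against Aβ control libraries it was -0.52 and -0.56, with ranges of -0.76 to -0.29 and of -1.06 to 1.36. There 2 of the 30 and 7 of the 29 were lower at an adjusted p under 0.05 (limma), against 15.1% of all genes.

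FPKM divide by a gene length, and for ribosomal protein genes the choice of that length matters. As principal mRNA the shortest transcript marked principal was taken, which gives the highest rescaled level where several are marked. The mRNAs are short, with a median principal mRNA of 681 bases in the GENCODE M21 annotation, and 62 of the 81 are under 1 kb. The table instead lists lengths with a median of 1734 bases, which for 77 of the 81 genes equal the union of all annotated exons, retained introns included. The median over all protein-coding rows is 3422 bases. The listed length was over 2 times the principal mRNA in 49 members, with a median ratio of 2.34 and a highest ratio of 9.80 for Rps15a (6270 against 640 bases). This length is the same in every library, so it leaves ratios between groups unchanged, but it sets the order of the genes by level.

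**Figure D1:**
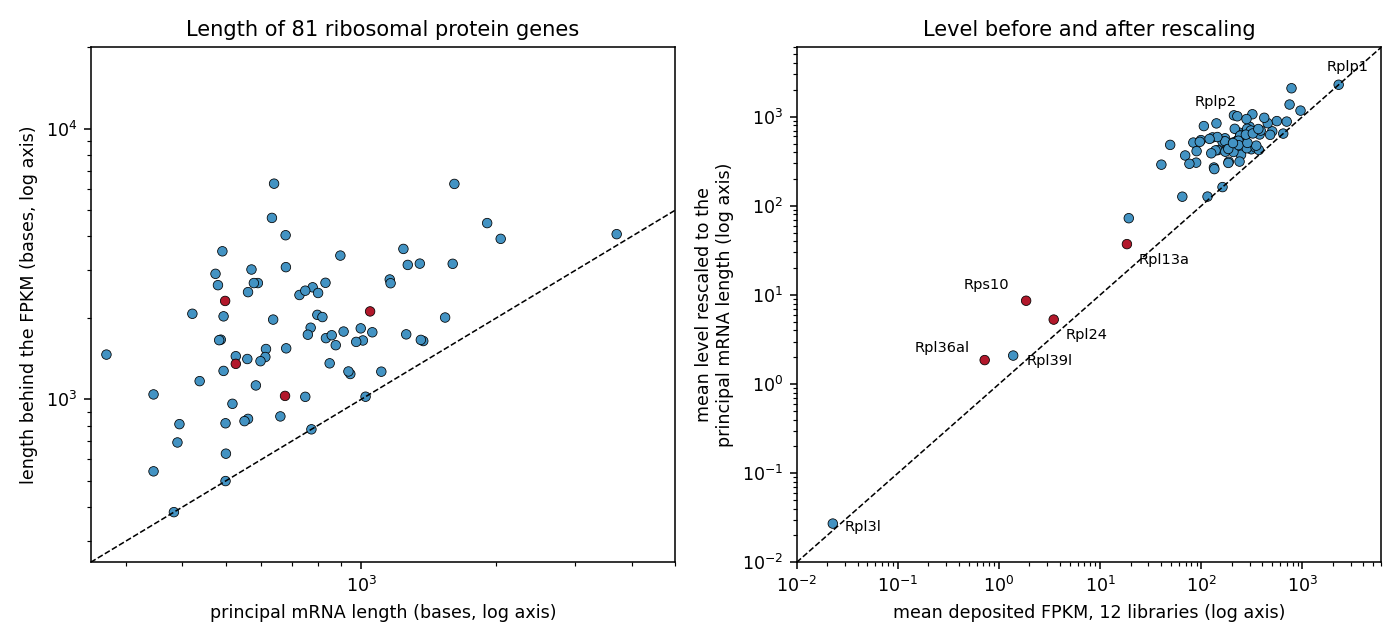
Left, length behind the FPKM against principal mRNA length of the 81 genes, in bases on log axes; right, mean FPKM over 12 libraries against the same level rescaled to the principal mRNA length, on log axes (Rpl10l, at 0, is not drawn). Dashed lines mark equality and red points the 4 genes with over 50% of the mRNA in exons of another gene; most points lie above the line, and Rplp2 moves up much more than Rplp1.

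By deposited FPKM the highest members were Rplp1 (mean over 12 libraries 2284), Rplp0 (958), Rpl41 (780.4), Rps2 (747) and Rps15 (699.6). Rplp0, Rplp1 and Rplp2 form the stalk that recruits the elongation factors, and Rpl41 encodes the shortest ribosomal protein. Scaled to the principal mRNA, Rplp1 stayed first at 2284 and Rpl41 came second at 2086, whereas Rplp2 moved up to rank 6, against rank 40 by FPKM (1036 against 210.5). Of genes picked for this shift, Rps19 moved likewise to rank 14 against 63, and Rpl18 to rank 13 against 55. Rplp2 has 3 transcripts marked principal, and Rps19 and Rpl18 have 2 each, so these shifts rest on the shortest. The order of the 79 members tested was nearly the same in all libraries, with Spearman's rho across genes of 0.928 to 0.993 over the 66 pairs of libraries. In 51 members the level was above 100 FPKM in every library.

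A few members stood far below the others. Rps10 (mean 1.85 FPKM), Rpl24 (3.48), Rpl13a (18.4) and Rpl36al (0.722) are the 4 genes of which over 50% of the principal mRNA, 59.3% to 91.6%, lies in exons that M21 also assigns to another gene on the same strand. The median over the other 77 was 214 FPKM. For Rps10 that other gene is the readthrough gene RPS10-NUDT3, which shares 91.6% of the mRNA, and for Rpl24, Rpl13a and Rpl36al it is Gm28037, Gm45713 and Gm49383. All 4 of those partner rows are listed at 0 in every library. How reads that fit 2 genes were counted is not known from the labels, so the levels of these 4 members are uncertain. Without them, 70 of 75 members tested rose in the Ogt cKO, against 22.6% of all genes. Under Aβ 11 of the 75 fell, close to the share of 15.1% of all genes called lower there.

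Pseudogene copies are the second limit. The table holds 379 rows described as ribosomal protein pseudogenes, and their reads came to between 3.83% and 4.52% of the members' reads in each library. For 3 members the pseudogene rows named after them held more reads than the gene itself. Rps10 had a mean of 74.2 reads per library against 2642 on its 5 pseudogene rows, Rpl17 had 2184.5 against 5127 on 12, and Rpl21 had 1134 against 1184 on 16. Reads of such genes can be split between copies, so their values are uncertain. Summed over the pseudogene rows, the ratio of Ogt cKO to cKO control was 2.12, of the AD model to AD control 0.965 and of Aβ-treated to Aβ control 0.651, close to the ratios of the genes themselves given next. A further 20 members overlap a row on the opposite strand, and without a stated strand setting reads of overlapping genes cannot be told apart.

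The summed level of the 81 genes was 29997 and 28551 FPKM in the Ogt cKO, against 13595 and 13487 FPKM in cKO control. The groups did not overlap and the means were 29274 ± 1023 and 13541 ± 76.4 FPKM (SD, n = 2 each), a ratio of 2.16. In the AD model it was 18834 and 14688 FPKM, against 21567 and 13563 FPKM in AD control. Replicate 1 was high and replicate 2 low in both AD groups, which overlapped, with means of 16761 ± 2932 and 17565 ± 5660 FPKM (SD, n = 2 each) and a ratio of 0.954. Aβ-treated libraries held 18376 and 21939 FPKM, against 30936 and 28560 FPKM in Aβ control libraries. These did not overlap, with means of 20157 ± 2519 and 29748 ± 1680 FPKM (SD, n = 2 each) and a ratio of 0.678. The sums are given as a description, without a test.

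**Figure D2:**
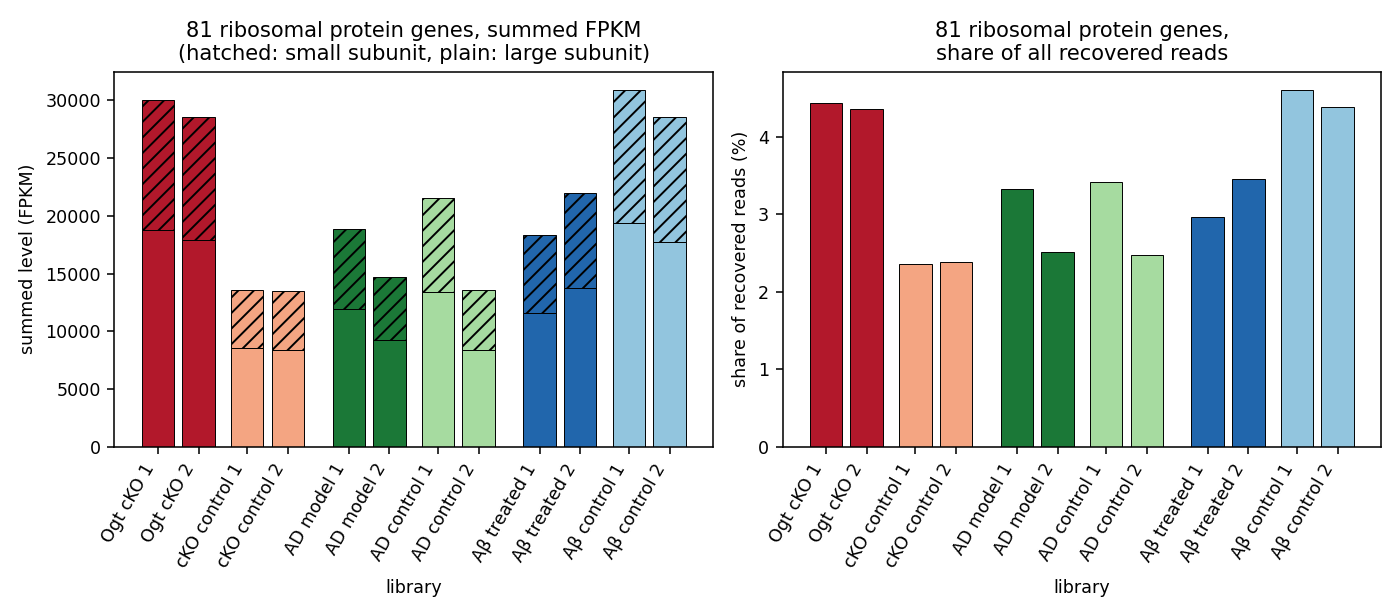
Left, FPKM summed over the 81 genes in each of the 12 libraries, with the large subunit plain and the small subunit hatched; right, the share of all recovered reads on them, in percent. Both Ogt cKO libraries and both Aβ control libraries stand at 28551 FPKM or more, and the cKO control libraries at 13595 and 13487.

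The control groups also differed among themselves. The Aβ control libraries (mice of 2 months) held more than 2 times the summed level of the cKO control libraries (4 months), and 77 of the 79 members tested were higher in both Aβ control libraries than in all 4 control libraries of the other experiments. The ranges of Ogt cKO and Aβ control libraries overlapped for 58 members. Age, experiment and culture cannot be told apart here. The highest of the 12 libraries was an Ogt cKO or an Aβ control library for 77 of 79 members. The same counts were not taken over all genes, so they do not show whether the family differs from other genes here.

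The size of the ratio depended on the scale of the table. As a share of the FPKM of all genes, the members took 7.997% and 8.19% in the Ogt cKO and 4.78% and 4.92% in cKO control, a ratio of 1.67. As a share of recovered reads they took 4.44% and 4.35%, against 2.36% and 2.38%, a ratio of 1.86. The library size behind the deposited FPKM was 15729932 and 16040867 in the Ogt cKO and 18843599 and 20627385 in cKO control, while 17272790 and 17128294 reads were recovered for the Ogt cKO and 17346371 and 18705309 for cKO control. For Aβ-treated over Aβ control libraries the ratio was 0.734 by FPKM share and 0.715 by reads, and for the AD model over AD control 0.920 and 0.990. Direction and separation of the groups were the same on all 3 scales in the cKO and Aβ experiments.

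Both subunits moved in step. The ratio of large to small subunit FPKM was 1.67 and 1.67 in the Ogt cKO against 1.68 and 1.64 in cKO control. It was 1.70 and 1.68 in Aβ-treated against 1.69 and 1.64 in Aβ control libraries. In the AD experiment it was 1.74 and 1.70 in the model against 1.65 and 1.61 in control, and there the groups did not overlap. Across the 12 libraries a first principal component held 87.5% of the variance of the members. The median SD of a member over the libraries was 0.485 on the log2 scale, and only 0.127 once each library was centred on its median member. In 65 members the centred SD was under 0.2, and in 4 (Rpl17, Rpl24, Rps27a and Rpl39l) it was above 0.4.

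In Ogt cKO against cKO control astrocytes the family rose almost as a whole. By limma on log2(FPKM + 1) over the 14014 genes that reached 1 FPKM in 2 or more libraries, 74 of the 79 members that passed this filter were higher at an adjusted p under 0.05 and none was lower, against 22.6% of all genes tested called higher and 19.8% lower (all 79 fitted changes were positive, and voom on the recovered reads gave 74 and 0). The filter removed Rpl3l and Rpl10l. The median log2 change was 1.14 (range 0.36 to 1.87), against -0.0024 over all genes, and the groups did not overlap, with the Ogt cKO higher, in 77 members and lower in none, against 41.6% and 42.2% of all genes. Of the small subunit 28 of 31 rose and of the large subunit 46 of 48. With 1 library left out fewer members were called higher, and fewer of all genes too. The median log2 change of the members then ran between 1.109 and 1.168, against -0.005 to 0.002 over all genes.

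The stalk genes were typical. Rplp1 (ENSMUSG00000007892, chr9:61913284-61914542, minus strand, mm10) was at 3229.9 and 3118 FPKM in the Ogt cKO, against 1467 and 1351 FPKM in cKO control. Both Ogt cKO libraries were more than 2 times as high, and the fitted log2 change was 1.17 ± 0.27 (SE; limma, adjusted p = 0.00967). Rplp0 was at 1445 and 1342 FPKM against 639 and 662 FPKM, and Rplp2 at 295 and 281 FPKM against 140.3 and 139 FPKM, and both rose (log2 change 1.10 and 1.04). Rpl12 encodes the protein at the base of the stalk. It was at 228 and 219.9 FPKM in the Ogt cKO against 75.3 and 75.2 FPKM in cKO control, with no overlap and a log2 change of 1.56 ± 0.26 (limma, adjusted p = 0.00332).

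On the small subunit, Rpsa, also known as the precursor of the laminin receptor, was at 556 and 529.9 FPKM in the Ogt cKO, against 188 and 185 FPKM in cKO control. Its groups stood far apart, with a log2 change of 1.54 ± 0.27 (limma, adjusted p = 0.00392). Rps6, the protein that the S6 kinases phosphorylate downstream of mTOR, was at 541 and 529.7 FPKM against 240.5 and 233 FPKM. It rose by 1.18 ± 0.24 on the log2 scale (limma, adjusted p = 0.00661). Rps3, which lines the mRNA entry channel, was at 271 and 261 FPKM against 108 and 107 FPKM and rose by 1.30. Rps12 (242 and 182 FPKM against 75.1 and 77.2 FPKM) rose by 1.45, and its Ogt cKO libraries lay further apart than those of Rps3.

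On the large subunit, Rpl5 and Rpl11 bind, with the small ribosomal RNA of that subunit, the ligase Mdm2 when ribosome assembly is disturbed. Rpl5 was at 182 and 177 FPKM in the Ogt cKO, against 93.0 and 91.6 FPKM in cKO control. Rpl11 was at 203 and 217 FPKM, against 117 and 115 FPKM. Neither gene's groups overlapped, and they rose by 0.95 and 0.85, below the median of the family. Rpl35, at the exit of the peptide tunnel, was at 359 and 334 FPKM against 129 and 122 FPKM and rose by 1.46. The X-linked Rpl10, which joins the subunit late in its assembly, was at 393 and 376 FPKM against 227 and 217 FPKM and rose by 0.79. All 4 X-linked members rose, with a median log2 change of 1.04 against 1.15 over the 75 others.

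The 5 members that did not pass the threshold in the Ogt cKO were Rpl17, Rpl39l, Rps21, Rps27 and Rps29. Rps21 was at 296 and 257 FPKM in the Ogt cKO, against 203 and 215 FPKM in cKO control, with no overlap but a log2 change of only 0.40 ± 0.19 (limma, adjusted p = 0.124). Rps27 was at 195 and 141 FPKM against 116 and 143 FPKM. Its groups overlapped. Rps29 was at 351 and 323 FPKM against 227 and 246 FPKM (log2 change 0.51, adjusted p = 0.105 by limma), again without overlap. These are short proteins of the small subunit, of which Rps27 and Rps29 carry zinc-binding motifs. Rps27l, the paralog of Rps27 known as a target of p53, behaved like the rest of the family, with 251 and 250.1 FPKM against 109 and 104 FPKM and a log2 change of 1.23 ± 0.26 (limma, adjusted p = 0.00767).

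A fit with each library centred on its median member asks which genes left the common course. In the Ogt cKO 58 of 79 members lay within 0.25 of the family, 3 were relatively higher and 3 relatively lower. Rpl12 (0.43, limma adjusted p = 0.0429) and Rpsa (0.41, adjusted p = 0.0383) were higher than the family. Rpl13a was higher by 0.74 (limma, adjusted p = 0.0266), from 27.5 and 28.3 FPKM in the Ogt cKO against 7.76 and 6.15 FPKM in cKO control, a gene with 59.3% of its mRNA shared. Rps21 was lower by -0.73 (limma, adjusted p = 0.00868), Rps27 by -0.77 (adjusted p = 0.0262) and Rps29 by -0.62 (adjusted p = 0.032). In the AD experiment no member passed the threshold in this fit (limma), and 68 of 79 lay within 0.25 of the family.

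Rps27a (ENSMUSG00000020460, chr11:29545846-29548109, minus strand, mm10), which encodes a ribosomal protein fused to ubiquitin, had the largest SD among abundant members once each library was centred on its median member. It was at 261 and 218 FPKM in the Ogt cKO, against 54.5 and 119 FPKM in cKO control. The groups did not overlap and the log2 change was 1.56 ± 0.47 (limma, adjusted p = 0.0273), but the 2 control libraries were themselves more than a factor of 2 apart. Rpl17 (207 and 170.1 FPKM against 75.8 and 76.1 FPKM) had a log2 change of 1.29 ± 0.59 that did not pass (limma, adjusted p = 0.106). Its level reached 321 FPKM in replicate 1 of the AD model and was 85.1 FPKM in replicate 2. Both genes are among the 61 members with pseudogene rows named after them. For Rps27a these rows held a mean of 124 reads per library, against 4312 on the gene. For Rpl17 they held 5127 against 2184.5. The part of these rows in the scatter was not tested.

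**Figure D3:**
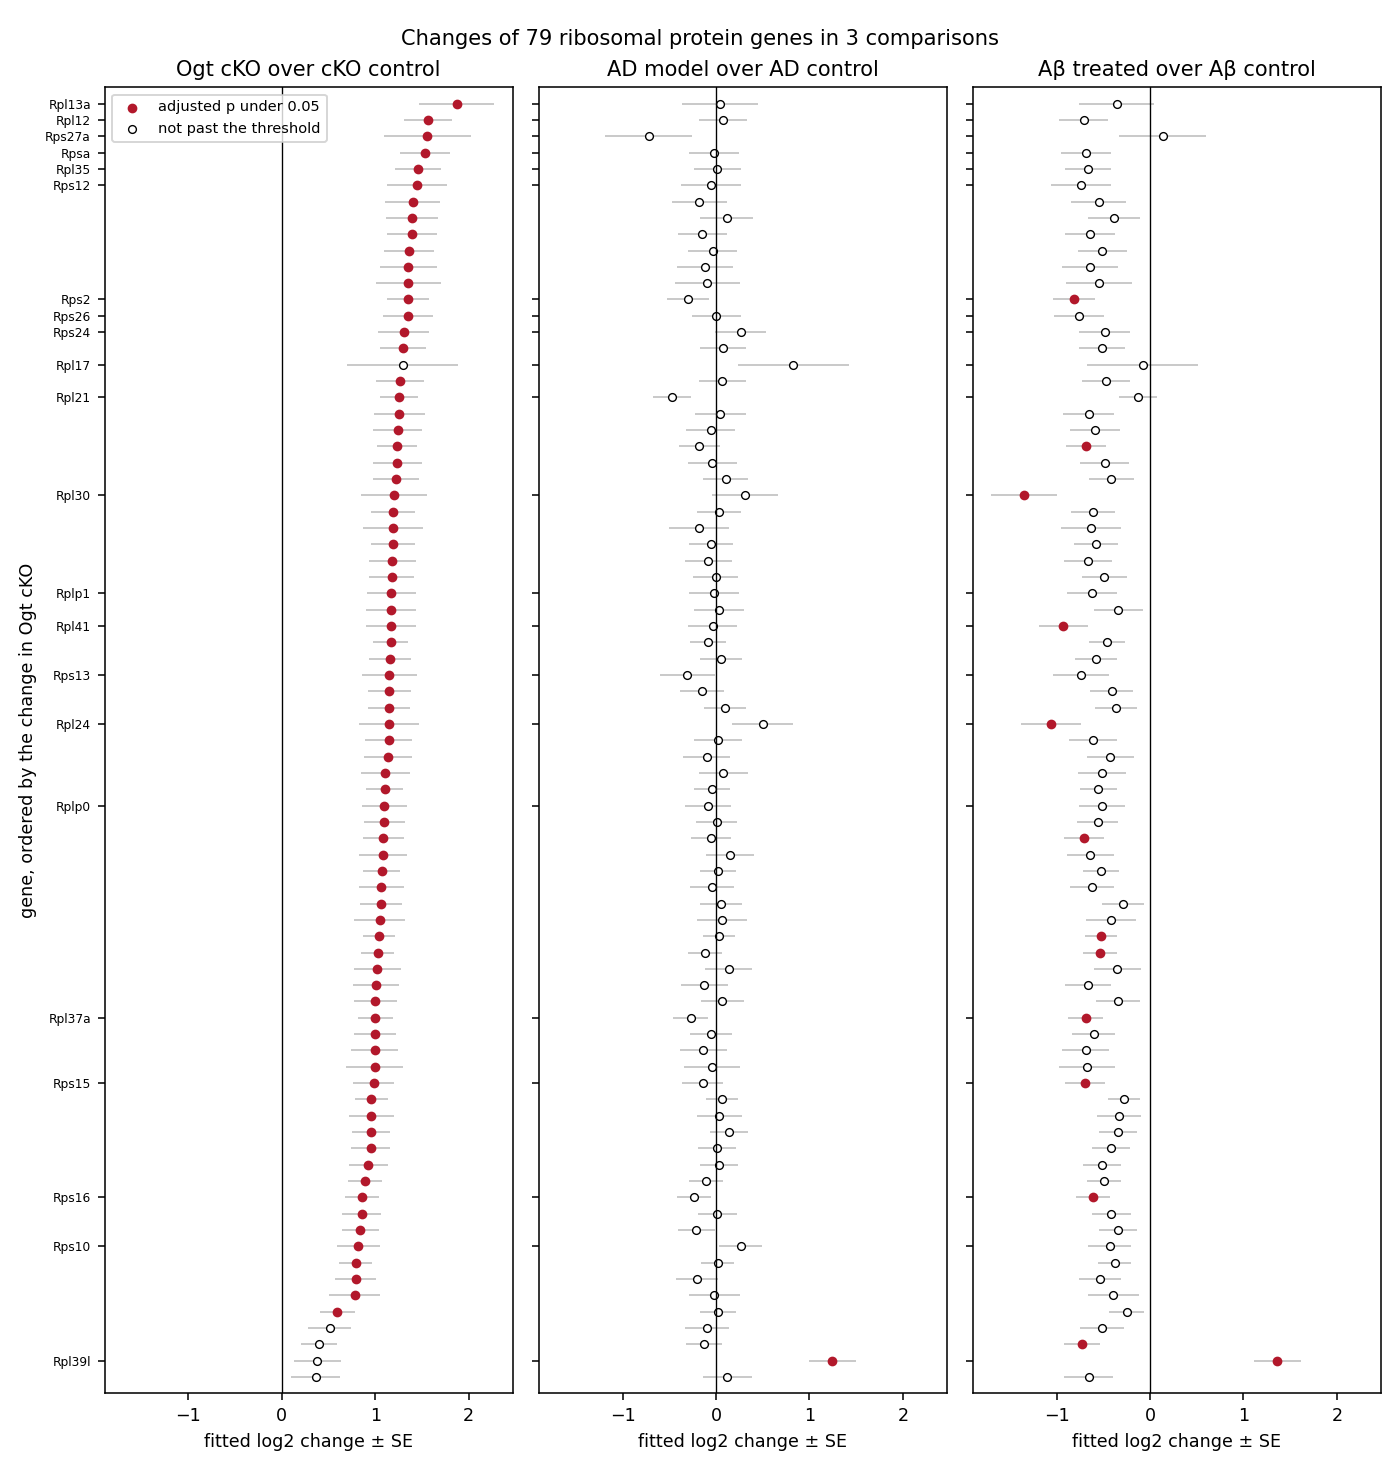
Fitted log2 changes (points) with standard errors (lines) of the 79 genes in the 3 comparisons, ordered by the change in the Ogt cKO, with names for the genes of largest change, difference or level; filled points passed the adjusted p of 0.05. Filled points cover 74 of 79 genes in the first panel, 1 in the second and 13 in the third.

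In AD model against AD control astrocytes the family did not move as a group. Of the 79 members 1 rose, Rpl39l, and none fell by limma (9.8% of all genes were called higher and 7.27% lower), and voom gave 1 and 0. An unadjusted p under 0.05 was reached by 2, Rpl39l and the lower Rpl21, a count not taken over all genes. The median log2 change was -0.02 (range -0.72 to 1.24), against -0.02 over all genes, and the groups overlapped in 76 members. The AD model was higher without overlap in 1 member, where 21.8% of all genes were. Rps6 was at 374 and 249 FPKM in the AD model, against 372 and 251 FPKM in AD control. Rplp1 was at 1841 and 1642 FPKM, against 2316 and 1349.6 FPKM. Both genes overlapped between the groups, with the higher values in replicate 1.

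That replicate split ran through the family. Replicate 1 exceeded replicate 2 in 76 of 79 members in the AD model, by a median of 0.40 on the log2 scale, and in 74 members in AD control, by 0.63. In the Ogt cKO the median difference of replicates was 0.06, in cKO control 0.02, in Aβ treated -0.22 and in Aβ control 0.10, while over all genes it was within 0.02 in every group. The smooth muscle actin Acta2 was also higher in replicate 1, with 650.2 and 171 FPKM in the AD model against 3129 and 1481 FPKM in AD control. Its part in the split was not tested. The median change of the family moved to 0.33 without AD control replicate 1 and to -0.35 without AD control replicate 2. Over all genes the median stayed between -0.027 and -0.012 with 1 library left out.

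The lowest fitted log2 changes in the AD model belonged to Rps27a (70.4 and 62.7 FPKM, against 88.2 and 137 FPKM in AD control) and Rpl21 (14.9 and 11.9 FPKM, against 19.5 and 18.3 FPKM). They were the 2 members whose AD model libraries both lay below both controls, where 23% of all genes were lower without overlap, and neither passed the test (limma, adjusted p = 0.359 and 0.159). Rps13, Rps2, Rpl37a and Rps16 followed, with log2 changes of -0.31 to -0.23 and overlapping groups. On the positive side Rpl17, Rpl24, Rpl30, Rps10 and Rps24 had log2 changes of 0.26 to 0.83, none past the threshold.

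In Aβ-treated against Aβ control astrocytes nearly all members were lower, by less than in the cKO experiment. Both treated libraries lay below both control libraries in 75 of 79 members and above both in 1, against 40.2% and 36.6% of all genes, and the median log2 change was -0.54 (range -1.35 to 1.36), against -0.04 over all genes. By limma 12 members fell and 1 rose, a share of calls close to the background for lower ones (15.1% of all genes were called lower and 20.8% higher). An unadjusted p under 0.05 was reached by 40 members, but this count was not taken over all genes. Among the 12 that fell were Rpl24, Rpl30, Rpl37a, Rpl41, Rplp2, Rps2, Rps15, Rps16 and Rps21. Of the 12, 5 belong to the small subunit and 7 to the large one. The count moved to 49 with the 4 libraries of the experiment alone, for which no count over all genes is given here. With 1 library left out fewer members were called lower, and fewer of all genes too. The median log2 change then ran between -0.644 and -0.419, against -0.039 to -0.027 over all genes.

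Rpl30 (ENSMUSG00000058600, chr15:34440505-34443640, minus strand, mm10), a large subunit protein that also binds the selenocysteine signal of selenoprotein mRNAs, had the largest decrease. It was at 28.6 and 52.9 FPKM in Aβ-treated, against 102 and 99.5 FPKM in Aβ control libraries. The groups stood well apart although the treated libraries differed nearly 2-fold, and the log2 change was -1.35 ± 0.35 (limma, adjusted p = 0.0166). It was also the only member called lower than the family in the centred fit, at -0.85 (limma, adjusted p = 0.0203). Without Aβ treated replicate 1 the change was -0.92, and the call was lost there and without either control library.

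Rpl41 was at 573 and 714 FPKM in Aβ-treated, against 1258 and 1178 FPKM in Aβ control libraries. Rps2, at the mRNA entry of the small subunit, was at 578 and 734 FPKM, against 1191 and 1097 FPKM. Rplp2 was at 186 and 224 FPKM, against 300.2 and 288 FPKM. All 3 were lower in both treated libraries, and they fell by 0.93, 0.81 and 0.52 on the log2 scale (limma, adjusted p = 0.024, 0.0218 and 0.0403). Rplp1 (2076 and 2289.7 FPKM against 3458 and 3268 FPKM) and Rps6 (359 and 412 FPKM against 578 and 505 FPKM) lay below their controls too but did not pass, with log2 changes of -0.62 and -0.49 (limma, adjusted p = 0.0963 and 0.138). Rps15, on the head of the small subunit, fell by 0.70, with 576 and 705 FPKM against 1082 and 986 FPKM. Rps26 and Rps12 had log2 changes of -0.76 and -0.74 that did not pass.

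Rpl24 is the gene mutated in the Belly spot and tail mouse. It fell by 1.06 on the log2 scale, with 2.69 and 1.196 FPKM in Aβ-treated against 6.60 and 3.63 FPKM in Aβ control libraries, on 47 and 22 reads against 115 and 65 reads, and 71.5% of its mRNA is shared with another gene. Rps21, which had moved little in the Ogt cKO, was at 173 and 233 FPKM in Aβ-treated, against 329 and 336 FPKM in Aβ control libraries, and fell by 0.73 ± 0.19 (limma, adjusted p = 0.0184). Rps27a did not follow, at 74.7 and 198 FPKM in Aβ-treated against 116 and 106 FPKM in Aβ control libraries. Its groups overlapped, as did those of Rpl17 and Rpl21.

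Of the paralogs whose names end in l, all but Rps27l were at the bottom of the range. Rpl10l, known from testis, was listed at 0 in all 12 libraries, and Rpl3l, known from muscle, never exceeded 0.108 FPKM and had at most 3 reads. Their counterparts Rpl10 and Rpl3 were at 197 FPKM or more and at 138 FPKM or more. Rps4l, a paralog of the X-linked Rps4x, is labelled a processed pseudogene in the table and is no member. Rps4x was at 553 and 509 FPKM in the Ogt cKO against 255 and 252 FPKM in cKO control and rose by 1.06. Rpl36al stayed between 0.215 and 1.23 FPKM on 6 to 29 reads, with the limit of shared exons given above. Its counterpart Rpl36a was at 129 and 119 FPKM in the Ogt cKO against 53.0 and 50.7 FPKM in cKO control. The call for Rpl36al in the Ogt cKO (1.03 and 1.11 FPKM, against 0.549 and 0.215 FPKM in cKO control) rests on 22 and 24 reads against 14 and 6. Besides both Ogt cKO libraries only replicate 2 of Aβ control reached 1 FPKM, so Rpl36al passed the filter through groups where it was high.

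Rpl39l (ENSMUSG00000039209, chr16:10170226-10174911, plus strand, mm10), the paralog of Rpl39 known from testis, went its own way in the amyloid experiments. It was at 1.97 and 2.78 FPKM in the AD model, against 0.291 and 0.551 FPKM in AD control. It was at 3.13 and 4.18 FPKM in Aβ-treated, against 0.641 and 0.970 FPKM in Aβ control libraries. Both pairs of groups stood apart, at low counts of 29 and 42 reads against 4 and 9 in the AD experiment and of 44 and 62 reads against 9 and 14 in the Aβ experiment. The log2 changes were 1.24 ± 0.25 (limma, adjusted p = 0.0101) and 1.36 ± 0.25 (adjusted p = 0.00349). In the Ogt cKO it was at 1.07 and 0.375 FPKM, against 0.511 and 0.117 FPKM, with overlap and no call. Rpl39 itself was at 158 and 121 FPKM in the AD model against 197 and 115 FPKM in AD control, and at 129 and 156 FPKM in Aβ-treated against 235 and 215 FPKM in Aβ control libraries. In the AD experiment the call for Rpl39l was lost when the 4 libraries were fitted alone, and a filter at 5 FPKM removed the gene. No control library reached 1 FPKM, so Rpl39l passed the filter only through groups where it was high. Its calls are therefore a description of these values and no independent support.

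**Figure D4:**
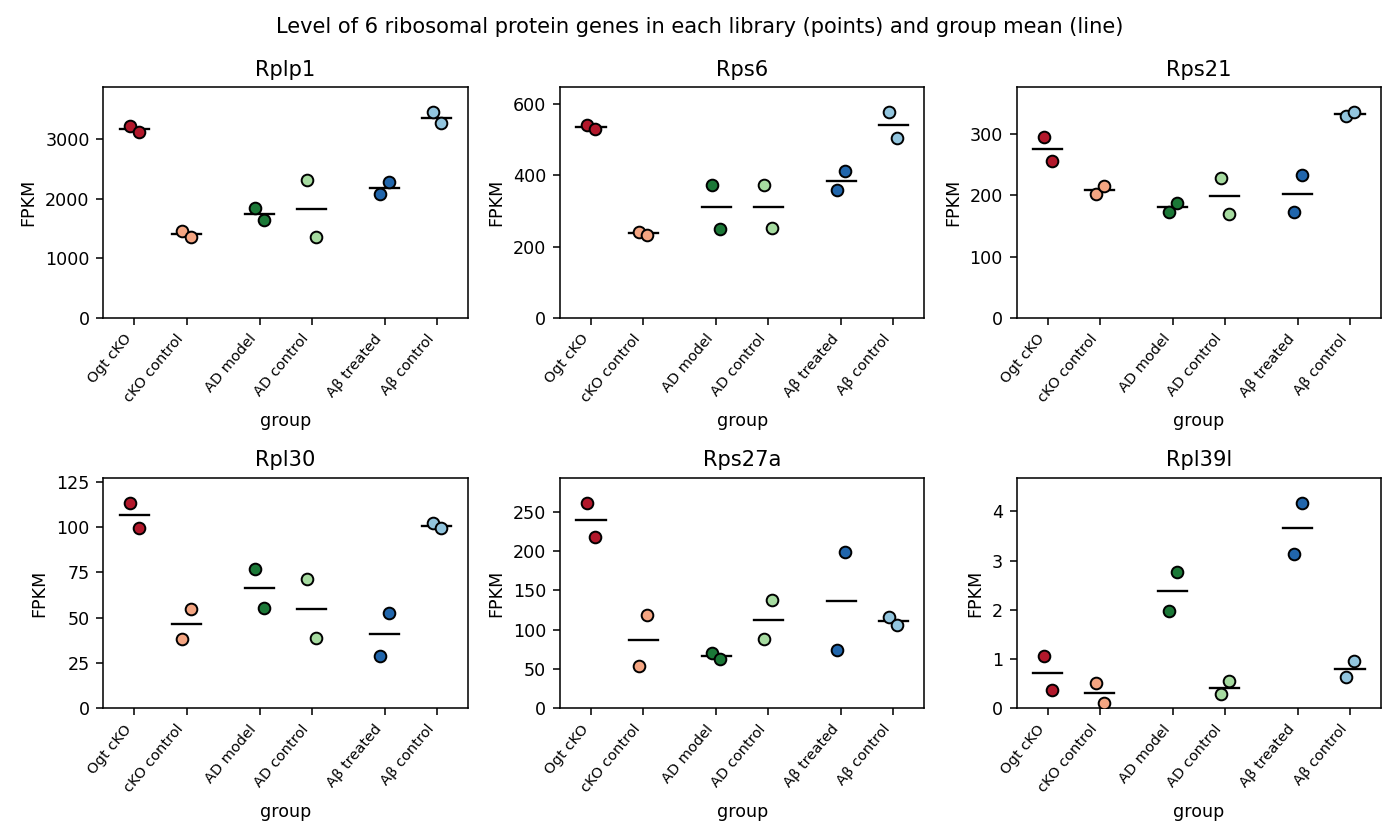
Level in FPKM of Rplp1, Rps6, Rps21, Rpl30, Rps27a and Rpl39l in each library (points) and the group means (lines), by group. Rplp1 and Rps6 follow the family, Rps21 moved less in the Ogt cKO, Rpl30 is lowest in an Aβ-treated library, Rps27a scatters within groups and Rpl39l is highest in Aβ-treated and AD model libraries.

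The differences between experiments were tested as contrasts in the same fit. The change in the Ogt cKO exceeded that in the AD model in 53 of 79 members, against 13.7% of all genes, and was lower in none, against 11.9% (limma). An unadjusted p under 0.05 was reached by 70 members, a count not taken over all genes. The 53 became 26 under TPM, 11 under quantile normalization and 9 with no filter, without counts over all genes beside them. The Ogt cKO change exceeded that under Aβ in 76 members and was lower in 1, Rpl39l, against 25.7% and 26.6% of all genes. Between the AD model and the Aβ treatment no member passed the threshold (limma), where 1.52% of all genes were called higher and 4.62% lower. The difference was positive in 76 of 79 members, with a median of 0.51 against 0.016 over all genes. Neither these signs nor the 4 members with an unadjusted p under 0.05 were counted over all genes.

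Of ribosomal proteins outside the naming pattern, Rack1, Fau and Rpl7l1 rose in the Ogt cKO, while Rpl22l1 and Rps27rt did not pass the threshold. None of these genes changed in the AD or Aβ experiments by limma. Rack1, a scaffold on the head of the small subunit, was at 263 and 253 FPKM in the Ogt cKO against 101 and 94.8 FPKM in cKO control, and at 145 and 178 FPKM in Aβ-treated against 272 and 239 FPKM in Aβ control libraries. It followed the family in both, with log2 changes of 1.38 ± 0.26 (limma, adjusted p = 0.00495) and -0.66 (adjusted p = 0.075). Fau encodes a ribosomal protein fused to a ubiquitin-like sequence, and rose by 0.91. Rps3a1, a small subunit gene chosen after its values were seen, was at 959 and 899 FPKM in the Ogt cKO against 448 and 432 FPKM in cKO control.

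The genes that build ribosomes moved in the same direction in the Ogt cKO. Of 72 ribosome biogenesis genes 52 rose and none fell (limma; median log2 change 0.75), against 22.6% and 19.8% of all genes. Under TPM 32 were higher and 1 lower (median 0.42, against -0.34 over all genes). Those that rose included Nop16, Rcl1 and Eif6, a factor that keeps new large subunits apart from small ones (80.9 and 79.1 FPKM against 34.3 and 33.7 FPKM). In the AD model 2, Utp15 and Heatr1, rose and none fell (median 0.12), against 9.8% and 7.27% of all genes. Under Aβ 15 fell and 5 rose (median -0.24), against 15.1% and 20.8% of all genes, and under TPM 8 and 7. Ncl, the nucleolar protein nucleolin, was one of the 5 that rose, at 42.1 and 43.5 FPKM in Aβ-treated against 10.7 and 16.6 FPKM in Aβ control libraries.

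Of 77 mitochondrial ribosomal proteins tested, which build the separate ribosome of mitochondria, 35 rose and none fell in the Ogt cKO, against 22.6% and 19.8% of all genes. Their median log2 change was 0.34. This group depended on the scale, with 9 higher and 7 lower and a median of 0.03 when levels were rescaled to TPM (which fixes the sum over all genes), which shifted the median of all genes by -0.34. On that scale 65 of the cytosolic members were called higher, with a median of 0.78. Under Aβ 27 mitochondrial ones fell and 3 rose, against 15.1% and 20.8% of all genes. They were led by Mrps6 (20.3 and 18.8 FPKM, against 72.0 and 65.5 FPKM in Aβ control libraries, log2 change -1.76 ± 0.18, limma, adjusted p = 0.000181). In the AD model 1 rose and 2 fell, against 9.8% and 7.27% of all genes.

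Of 34 translation initiation factors 20 rose and none fell in the Ogt cKO (median 0.61), against 22.6% and 19.8% of all genes. There 11 were higher and 3 lower under TPM (median 0.26, against -0.34 over all genes). Rescaled to the total of reads these counts were 13 and 1, and under quantile normalization 12 and 2. None passed the threshold in the AD model, where 9.8% of all genes were called higher and 7.27% lower. Under Aβ 6 rose and 8 fell (median -0.29), against 20.8% and 15.1% of all genes, and under TPM 7 and 4. Eif5b, which joins the subunits, was at 11.5 and 12.05 FPKM in Aβ-treated against 2.38 and 1.84 FPKM in Aβ control libraries. In the AD experiment it was at 10.9 and 10.4 FPKM in the AD model against 12.5 and 9.63 FPKM in AD control. Of 16 genes of elongation factors and other mRNAs known for TOP tracts, 14 rose in the Ogt cKO, against 22.6% of all genes. Their median of 1.22 was close to that of the ribosomal proteins. Under Aβ 4 fell and 1, Eef1a2, rose, against 15.1% and 20.8% of all genes, and none changed in the AD model. Eef1g, a subunit of the elongation factor complex, was at 550.0 and 513 FPKM in the Ogt cKO against 169.8 and 161 FPKM in cKO control.

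**Figure D5:**
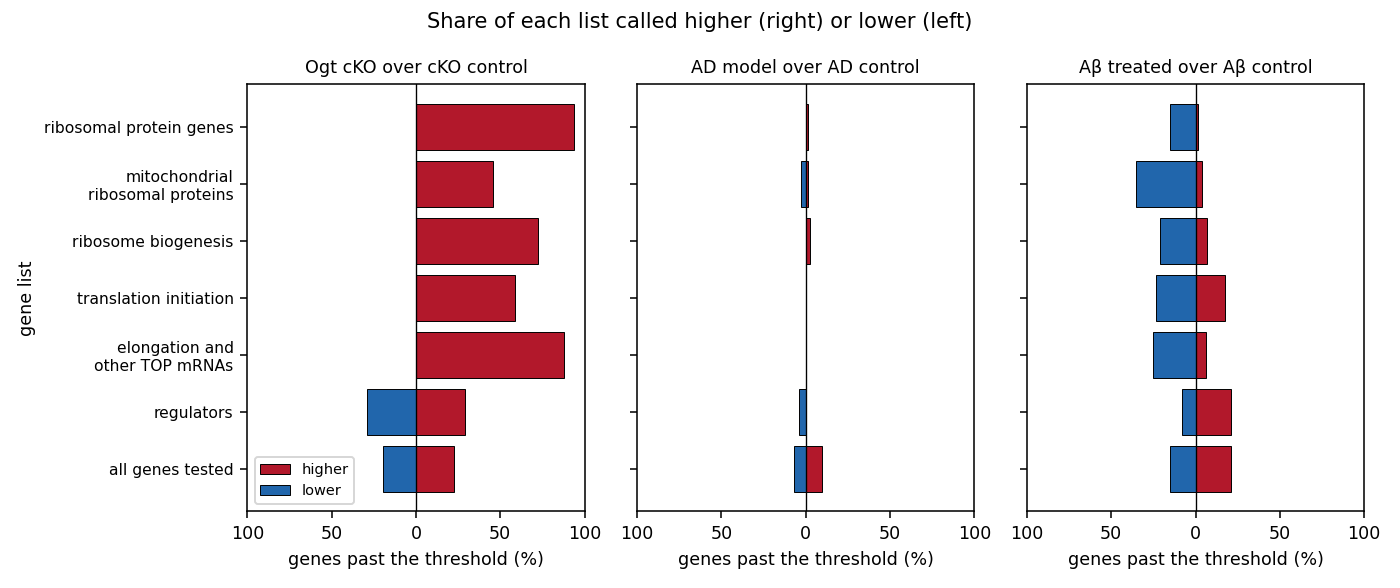
Share of the tested genes of each list, in percent, called higher (red, to the right) or lower (blue, to the left) at an adjusted p under 0.05 in the 3 comparisons, with all 14014 genes tested in the bottom row. The ribosomal protein genes reach 93.7% higher in the Ogt cKO, against 22.6% of all genes.

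Of 24 regulators of ribosome production 7 rose and 7 fell in the Ogt cKO (median -0.12), against 22.6% and 19.8% of all genes. There 5 were higher and 13 lower under TPM (median -0.48), 6 and 11 when rescaled to the total of reads (median -0.30), and 8 and 4 with a trend on gene length removed (median 0.02). Over all genes these scales gave medians of -0.34, -0.19 and 0.01. Relative to all genes the regulators' median was -0.138, -0.115 and 0.012 on them, and -0.114 in the main fit. In the AD model 1 fell, against 7.27% of all genes. Under Aβ 5 rose and 2 fell, against 20.8% and 15.1% of all genes. Myc, the transcription factor known to drive ribosome synthesis, was chosen after its values were seen. It was at 28.8 and 29.2 FPKM in the Ogt cKO, against 4.34 and 6.74 FPKM in cKO control (log2 change 2.22 ± 0.43, limma, adjusted p = 0.00569). Its level also stood at 22.3 to 38.1 FPKM in all 4 libraries of the Aβ experiment, without a call. Trp53 rose in the Ogt cKO (62.5 and 61.6 FPKM against 20.6 and 18.5 FPKM), and the translation repressor Eif4ebp1 rose as well. Mxd4, which opposes Myc, fell in the Ogt cKO (14.4 and 13.8 FPKM against 23.9 and 28.2 FPKM) and in the AD model.

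Marker lists of other cell types also changed, in patterns that differed from list to list. Over all genes 22.6% were called higher and 19.8% lower in the Ogt cKO. The shares were 9.8% and 7.27% in the AD model and 20.8% and 15.1% under Aβ. Of the 8 tested markers of pericytes and smooth muscle 5 rose in the Ogt cKO, 6 fell in the AD model and 7 fell under Aβ. Of 8 genes of cycling cells 6 rose in the Ogt cKO, with sums of 172 to 177 FPKM against 57.2 to 73.5 FPKM in cKO control. In the AD model 6 rose too, with sums of 149.8 to 184 FPKM against 64.0 to 73.6 FPKM in AD control, and under Aβ 2 rose, with 153 to 169 FPKM against 167 to 171 FPKM in Aβ control libraries. Of 8 endothelial markers 7 rose in the Ogt cKO and 6 rose under Aβ. Of 12 microglia and macrophage markers 6 fell in the Ogt cKO, 8 rose in the AD model, and 3 rose and 2 fell under Aβ. Of 6 oligodendrocyte markers 3 fell in the Ogt cKO, 5 rose in the AD model and 6 rose under Aβ. Of 6 fibroblast markers none changed in the Ogt cKO, 4 fell in the AD model, and 1 rose and 3 fell under Aβ. Of 3 neuronal markers tested 1 rose in the Ogt cKO, none changed in the AD model, and 1 rose and 1 fell under Aβ. Of the 10 astrocyte markers 7 fell in the Ogt cKO, 3 fell in the AD model, and 2 rose and 1 fell under Aβ. The part of any of these cell types in the changes of the family was not tested.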

How the data were processed

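The authors deposited 1 table of FPKM for 12 libraries. FPKM are fragments per kilobase of gene length, scaled to library size, and the build is mm10 per the submitters' processing notes. For aligner, counter, strand setting and reads with several matches, the sources used here give nothing. The table's gene lengths were compared with GENCODE M21, and promoters came from RefSeq (GRCm38.p6).

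Within each library the deposited FPKM times the gene length came in whole multiples of 1 step (100% of values within 0.1 of a whole number), which gave reads per gene. On a gene of 1 kb, 3 reads were worth 0.145 to 0.191 FPKM. This limit concerns counting error alone.

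The 14014 genes that reached 1 FPKM in 2 or more libraries were fitted by limma (version 3.58.1, R version 4.3.3) on log2(FPKM + 1). All 12 libraries shared 1 fit of 6 group means with a mean-variance trend (6 residual degrees of freedom). P-values were Benjamini-Hochberg adjusted over all genes and called under 0.05. The pseudocount of 1 understates changes of low genes. Fold changes in the text are on this scale. The script was tested on simulated data.

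Alternatives were TPM and other scalings, other filters and pseudocounts, voom on recovered reads, each experiment alone, replicate blocks, and each library left out. Genes named from the lists were the 3 with the smallest p in each list and comparison, or are marked as chosen after their values were seen. Within the family, the text names genes of fixed roles, paralogs with their counterparts, the 5 highest genes, the 6 highest and 6 lowest changes per comparison, and the 3 largest differences of effects. It also lists members called or not called. The members and gene lists were chosen with earlier results of these data known. The lists held mitochondrial ribosomal proteins, ribosome biogenesis, initiation, elongation, regulators of ribosome production and cell type markers. Values of a few single genes are not reported here.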

Additional observations from a re-analysis of the deposited data

Results flagged for a closer look

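The change of several members differed between experiments by a test of the difference in limma, with p-values adjusted over all genes. The Ogt cKO effect exceeded the AD model effect by 2.28 on the log2 scale for Rps27a (SE 0.66, adjusted p = 0.0356), by 1.83 for Rpl13a (SE 0.57, adjusted p = 0.0452) and by 1.73 for Rpl21. In total 53 members differed between these experiments, all with the higher change in the Ogt cKO, and 26 under TPM, 11 under quantile normalization and 9 with no filter. Rps27a scattered within groups, Rpl13a shares exons with another gene, and the pseudogene rows of Rpl21 held more reads than the gene.

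The Ogt cKO effect exceeded the Aβ effect by 2.55 for Rpl30 (SE 0.50, limma adjusted p = 0.0032), by 2.27 for Rpl12 (SE 0.36, adjusted p = 0.0014) and by 2.23 for Rpl13a (SE 0.57, adjusted p = 0.0109). In total 77 members differed between these experiments, 76 with the higher value in the Ogt cKO and Rpl39l with the lower. These experiments have separate controls, of mice aged 4 and 2 months, and the Aβ control libraries stood at the level of the Ogt cKO libraries.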

How the results depend on the processing

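The direction of the family in the Ogt cKO was higher under each scaling except centring on the median member, which removes the shared change by construction. Called members numbered 74, and 39 under quantile normalization, 3 higher and 3 lower when centred, and 27 to 56 with 1 library left out. The median log2 change was 0.782 under TPM, 0.539 under quantile normalization, 0.89 with a trend on gene length removed and 0.012 when centred. TPM shifted the median of all genes by -0.34 and rescaling to the total of reads by -0.19. The ratio of summed levels was 1.67 by share of FPKM and 1.855 by share of reads. Centring sets about 50% of the members below 0 by construction. Among named genes called in either fit, the centred change was negative for Rpl10 (-0.341), Rpl11 (-0.276), Rpl3 (-0.138), Rpl36al (-0.536), Rpl39 (-0.119), Rpl5 (-0.176), Rplp0 (-0.032), Rplp2 (-0.092), Rps15 (-0.147), Rps27 (-0.765) and Rps4x (-0.066). It was also negative for the members Rps21 (-0.731) and Rps29 (-0.619), which that selection of named genes leaves out.

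In the AD model the count of 1 higher became 0 with the 4 libraries alone, when centred, with crossed pairs and with a filter at 5 FPKM, which removed Rpl39l. With 1 library left out it was 1 to 2, the count lower was 0 to 4, and the median ran between -0.353 and 0.331. Under Aβ the 12 lower members became 49 with the 4 libraries alone, 3 with no filter, 5 with a length trend removed, 1 when centred (median -0.041) and 0 to 4 with 1 library left out, when the median ran between -0.644 and -0.419. The count of 1 higher became 0 with a filter at 5 FPKM.

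The Ogt cKO effect exceeded that of the AD model in 26 members under TPM, 9 with no filter, 11 under quantile normalization, 34 when rescaled to the total of reads, 30 with a length trend removed (1 lower) and 0 when centred (1 lower). It exceeded the Aβ effect in 4 when centred. The 1 lower member became 0 under TPM, with a filter at 5 FPKM, no filter, a pseudocount of 0.1 and quantile normalization.

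The labels do not say that replicate numbers mark a shared batch. The deviations of same-numbered libraries correlated at 0.0332 in the cKO, 0.551 in the AD and -0.169 in the Aβ experiment. With the replicate block 74 members were higher in the Ogt cKO and 51 lower under Aβ. With crossed pairs these counts were 41 and 1, and counts over all genes in these fits are not given here. Apart from centring, the cause of these differences was not tested. Scaling by median ratios, a pseudocount of 0.1, robust variance and voom changed no call among the 80 results for named genes within the 3 comparisons.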
